A study of Mus musculus with 4 samples.

Results

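Here 10 genes of the NRF2 and glutathione system, Gsto1, Gclc, Gclm, Nqo1, Hmox1, Txnrd1, Srxn1, Gsta4, Gstm1 and Nfe2l2, were examined in mouse podocytes treated with IL-12. They were taken by gene name from a deposited table of 54532 genes, and all 10 were found. The cells were the mouse podocyte cell line MPC5, a conditionally immortalized line, so both groups are cultures of 1 established line and not glomerular tissue. The IL-12 treatment group (2 libraries) was exposed to IL-12 for 6 h per the labels, at 400 ng/ml per the study's methods, and the control group (2 libraries) to saline. Total RNA was sequenced, and the deposited values are raw counts per gene, with totals from 18355379 to 20098012 per library. No source states that replicates were grown as separate cultures, so the p-values measure only the spread between these libraries, which may be technical. Unless another tool is named, each adjusted p is the Benjamini-Hochberg value of edgeR's quasi-likelihood test over all genes tested.

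NRF2, encoded by Nfe2l2, is a transcription factor that KEAP1 normally holds for degradation and that accumulates when electrophiles or oxidants modify KEAP1. Together with small MAF proteins it binds antioxidant response elements and drives genes for glutathione synthesis, for conjugation of electrophiles and for the thioredoxin system, while BACH1 represses part of the same genes. Glutathione, the main small thiol of the cell, is made in a pair of steps, of which the first, by glutamate-cysteine ligase, limits the rate. In podocytes this system is studied as a defence against oxidative injury.

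The label of the cells was compared with marker genes. Of 12 podocyte markers, 10 had counts, and their summed level was 2922 and 2934 CPM (counts scaled to a common library total) without IL-12 and 2789 and 2801 CPM with it. Most of it came from Actn4, Kirrel, Synpo and Cd2ap, and its members did not move together. Synpo was at 496 and 476 CPM without IL-12 and at 297 and 302 CPM with it, and Plce1 at 41.8 and 44.1 CPM against 27.9 and 29.6 CPM. Actn4 was instead higher with IL-12, at 1163 and 1176 CPM against 1302 and 1256 CPM. The defining markers of the differentiated podocyte were nearly absent, since nephrin (Nphs1) had at most 1 count in any library, Wt1 had 4 to 16 counts, and Tcf21 and Ptpro were at 0. Markers of endothelial cells (summed level of at most 0.547 CPM, 4 of 6 with counts) and of T or NK cells (1 count of Cd4 over all libraries) were near 0. The macrophage list (4 of 5 with counts, Adgre1 at 0) summed to 26.6 and 29.4 CPM without IL-12 and 15.8 and 19.9 CPM with it. The lower sum came from Csf1r, at 21.7 and 23.3 CPM without IL-12 and 10.9 and 12.9 CPM with it, whereas Cd68 overlapped between the groups (4.76 and 6.01 CPM against 4.63 and 6.43 CPM) and Ptprc, at most 12 counts in a library, was higher with IL-12. The tubule list (3 of 5 with counts, Slc34a1 and Umod at 0) summed to 640 to 668 CPM and 509 to 550 CPM, nearly all from Lrp2, and the mesangial or fibroblast list (6 of 6 with counts) to 209 to 210 CPM and 219 to 228 CPM. Synpo, Plce1, Actn4, Csf1r and Lrp2 thus moved with the treatment, and their part in the results below was not tested. Of the IL-12 receptor chains, Il12rb1 had 8 to 26 counts per library and Il12rb2 was at 0 without IL-12 and at 1 and 4 counts with it.

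The promoters of the members are shown here because NRF2 target genes are defined by antioxidant response elements. The core of this element was searched as TGACNNNGC or TGAGNNNGC on both strands in the 250 bases before each start site listed by RefSeq (GRCm38.p6), and the AP-1 element as TGAGTCA, which can overlap the core. The table held 10 promoters of 7 members, and 4 of these 10 promoters had at least 1 core match, those of Srxn1, Gclm and Nfe2l2 and 1 of the 3 of Txnrd1. Of all 32851 promoters of the table, 23.0% had one. Srxn1 was the member with 2 core matches, and the one closest to its start, TGAGTCAGC at bases -45 to -37, contains an AP-1 element. A second AP-1 element of Srxn1, at bases -102 to -96, lies outside the core matches. AP-1 elements were present in 4.46% of all promoters of the table. The windows with a match are given 5′ to 3′ along the gene, with capitals marking the core match on either strand.
Srxn1 chr2:152105346-152105507 (+ strand): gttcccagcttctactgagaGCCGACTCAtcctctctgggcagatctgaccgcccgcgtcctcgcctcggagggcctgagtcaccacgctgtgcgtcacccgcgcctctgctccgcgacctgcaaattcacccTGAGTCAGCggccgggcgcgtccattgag
Gclm chr3:122245403-122245451 (+ strand): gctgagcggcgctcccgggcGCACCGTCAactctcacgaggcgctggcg
Txnrd1 chr10:82859094-82859142 (+ strand): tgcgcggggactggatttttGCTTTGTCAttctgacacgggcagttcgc
Nfe2l2 chr2:75704875-75704913 (- strand): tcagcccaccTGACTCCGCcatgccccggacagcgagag

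In contrast, no core match was in this window of Gsto1 and Gstm1, the members with the largest changes among those of high level, nor in that of Nqo1. A match says only that these letters are present, and its absence only that they are not in this window. The 250 bases before the start are given for Gsto1 and for the outermost listed start of Gstm1, and without a match they hold no capitals.
Gsto1 chr19:47854723-47854972 (+ strand): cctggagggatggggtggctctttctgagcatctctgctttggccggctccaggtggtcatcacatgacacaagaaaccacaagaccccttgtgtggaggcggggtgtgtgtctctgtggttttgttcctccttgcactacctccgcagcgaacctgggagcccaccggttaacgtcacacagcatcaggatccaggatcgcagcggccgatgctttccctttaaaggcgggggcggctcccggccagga
Gstm1 chr3:108017974-108018223 (- strand): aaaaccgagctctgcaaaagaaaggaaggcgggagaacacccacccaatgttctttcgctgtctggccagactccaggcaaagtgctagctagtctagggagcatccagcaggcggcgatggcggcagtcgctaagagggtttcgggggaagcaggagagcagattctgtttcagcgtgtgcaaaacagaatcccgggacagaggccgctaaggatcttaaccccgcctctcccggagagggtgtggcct

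Across the members, the response to IL-12 was mixed. Gsto1 rose about 3-fold and Txnrd1 rose slightly, Gstm1 fell by 0.58 on the log2 scale, and Gclc, Gclm, Srxn1 and Nfe2l2 fell by 0.27 or less. Nqo1 was near the limit of detection and higher in the IL-12 libraries, Hmox1 showed no detectable difference, and Gsta4 was not detected. With edgeR's quasi-likelihood test at an adjusted p below 0.05 over all 14095 genes tested, 3 of the 10 members were higher and 5 were lower, 1 was not called and 1 was not tested. Among the 3, Nqo1 had 4 and 3 counts against 11 and 15 and entered the test only through the libraries where it was high, so its call adds no support to these counts. The same test called 30.5% of all genes tested, 16.1% higher and 14.4% lower, so a small significant change was common in these libraries. With scaling by total counts in place of TMM, 40.5% of all called genes were higher, against 52.8%, and the members still split into 3 higher and 5 lower. With the 2-fold limit that the study used as well, Gsto1 passed, as did Nqo1 with the same reservation, and 1.61% of all genes tested did. The groups did not overlap for 8 of the 9 members tested, again including Nqo1 with the same reservation, as for 62.9% of all genes tested. The median log2 fold change of the 9 members tested, Nqo1 included, was -0.14, and that of all genes tested was -0.0022. The 5 decreases became 2 without control replicate 1 or without IL-12 replicate 1, and 3 without either of the other libraries, while the 3 increases became 2 without any 1 library. In bulk RNA, fewer cells that express a gene and less RNA per cell cannot be told apart.

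**Figure D1:**
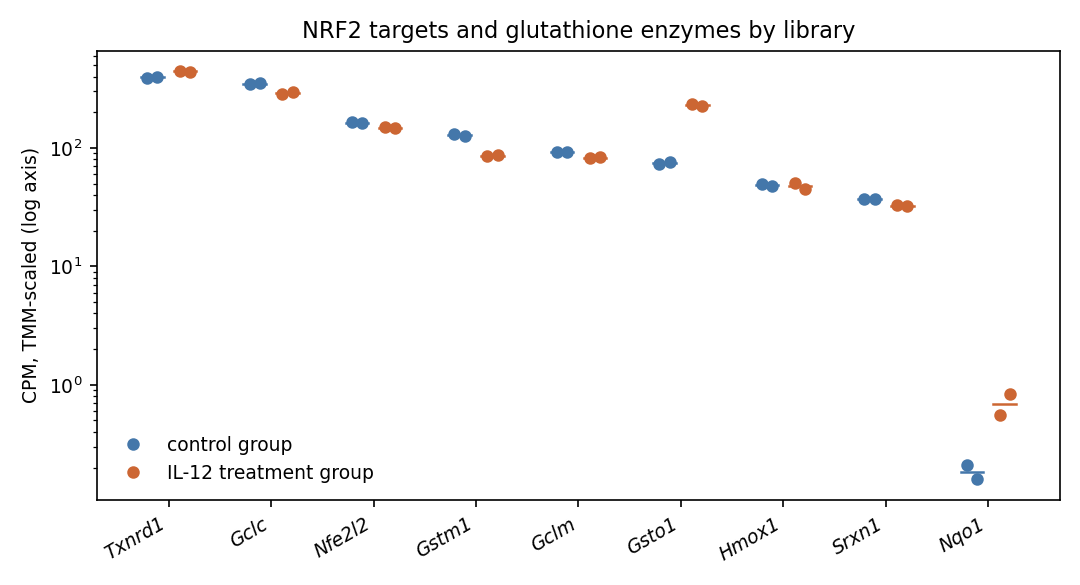
Level of each member in the 4 libraries, in CPM scaled by TMM on a log axis, with a short line at each group mean (n = 2). Gsto1 stands at 72.8 and 75.5 CPM in the control group and at 234 and 224 CPM in the IL-12 treatment group, and Nqo1 is below 1 CPM in every library. Gsta4, with 0 counts, is not drawn.

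Gsto1 (ENSMUSG00000025068) encodes an omega-class glutathione transferase, an enzyme that uses a cysteine at its active site and reduces small molecules and protein thiols with glutathione. It lies on chromosome 19 of GRCm38 from 47854970 to 47864790 on the plus strand. Its control counts were 1381 and 1427, against 4626 and 4061 after IL-12. This is 74.2 ± 1.92 CPM (SD, n = 2) without IL-12 and 229 ± 6.62 CPM (SD, n = 2) with it. Both IL-12 libraries were far above both control libraries, and the gap was many times the spread within a group. The log2 fold change was 1.63 ± 0.04 (SE), a ratio of 3.09 (adjusted p = 3.71e-15). Gsto1 was at rank 6 of 14095 genes by p-value, and 75 genes including itself had a log2 fold change at least as large in either direction. It passed the adjusted p threshold in all 15 alternative settings computed for it, with log2 fold changes from 1.59 to 1.66.

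The Gsto1 locus lies within the span of Cfap43, which runs on the opposite strand, and whether reads were counted by strand is not given. In GENCODE release M21, 0 of the 2023 exonic bases of Gsto1 lie in an exon of Cfap43. Cfap43 had control counts of 1501 and 1472 against 2168 and 2038 after IL-12, with a log2 fold change of 0.50 (adjusted p = 1.56e-07). Its fold change was thus below that of Gsto1. None of the 50-base words of the Gsto1 transcripts occurs in a transcript of another gene. The neighbouring paralog Gsto2, the other omega-class gene, had 10 to 21 counts per library and a log2 fold change of 0.09 (adjusted p = 0.915).

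Among 9213 protein-coding genes of at least 10 CPM, the pattern over the 4 libraries most like that of Gsto1 was found for Pmepa1, Col4a3 and Col4a4. Their centred log2 CPM values differed from those of Gsto1 by a root-mean-square of 0.037, 0.044 and 0.050. With 4 libraries in 2 groups, this measure mostly reflects the size of the difference between the groups.

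Gstm1 (ENSMUSG00000058135, chromosome 3 from 108012255 to 108017973, minus strand) is a mu-class glutathione transferase, which conjugates glutathione to electrophiles. It changed opposite to Gsto1. Gstm1 had control counts of 2484 and 2373 against 1688 and 1576 after IL-12, or 128 ± 3.80 CPM (SD, n = 2) without IL-12 and 86.1 ± 1.26 CPM (SD, n = 2) with it. The groups did not overlap. Its log2 fold change was -0.58 ± 0.05 (SE), a ratio of 0.671 (adjusted p = 2.16e-08). It was called in all 15 alternative settings, with log2 fold changes from -0.62 to -0.54. Of the 50-base words of its transcripts, 18.9% also occur in transcripts of other genes, mostly in the pseudogene Gstm2-ps1, which had 95 counts over the 4 libraries. The value is therefore uncertain to the extent that the counting shared reads within this gene family.

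Per length, these transferases changed places. FPKM, the deposited level per kilobase of gene length, was used to compare genes with each other. In the control libraries Gsto1 was at 37.0 and 38.4 FPKM and Gstm1 at 88.9 and 85.4 FPKM. In the IL-12 libraries Gsto1 was at 119 and 114 FPKM and Gstm1 at 58.0 and 59.2 FPKM. The ratio of Gsto1 to Gstm1 was 0.416 and 0.450 without IL-12 and 2.05 and 1.93 with it. Gsta4, an alpha-class transferase that acts on lipid peroxidation products (ENSMUSG00000032348, chromosome 9 from 78182774 to 78209349), had 0 counts in all 4 libraries, which allows a level of up to 0.149 to 0.163 CPM per library by counting error alone.

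Glutamate-cysteine ligase consists of the catalytic subunit Gclc and the modifier subunit Gclm, and both transcripts were lower in the IL-12 treatment group. Gclc (ENSMUSG00000032350, chromosome 9 from 77754535 to 77794485, plus strand) had control counts of 6566 and 6623 against 5589 and 5384 after IL-12. This corresponds to 348 ± 3.06 CPM (SD, n = 2) without IL-12 and 290 ± 10.6 CPM (SD, n = 2) with it, and the groups did not overlap. The log2 fold change of Gclc was -0.27 ± 0.03 (SE, adjusted p = 7.64e-06). Gclm (ENSMUSG00000028124, chromosome 3 from 122245557 to 122270732, plus strand) had control counts of 1743 and 1748 against 1619 and 1505 after IL-12, or 92.2 ± 0.433 CPM (SD, n = 2) without IL-12 and 82.4 ± 0.951 CPM (SD, n = 2) with it. Its libraries were tight within each group, and its decrease was small, with a log2 fold change of -0.16 ± 0.05 (SE, adjusted p = 0.0131). Per length, Gclc was far above Gclm, with an FPKM ratio of 6.29 and 6.33 without IL-12 and 5.77 and 5.98 with it.

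The call of Gclc was kept in 14 of 15 alternative settings and missed in limma on log2(FPKM + 1) without a filter (adjusted p = 0.0509). Gclm was called in 8 of 15, and its adjusted p was 0.0541, 0.0659 and 0.0949 without control replicate 1, control replicate 2 and IL-12 replicate 1. Of the 50-base words of Gclm, 3.92% occur in transcripts of other genes, mostly of Ppia, whose log2 fold change was 0.01 (adjusted p = 0.840). Gclm also overlaps the antisense transcript Gm17494, which had 52 counts against 6615 for Gclm over the 4 libraries.

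Txnrd1 encodes cytosolic thioredoxin reductase, a selenoprotein that keeps thioredoxin reduced with NADPH, and it was the member with the highest CPM level. It lies on chromosome 10 from 82833951 to 82897712 (ENSMUSG00000020250, plus strand). Its control counts were 7415 and 7500, against 8787 and 7950 after IL-12, and its level was 394 ± 4.23 CPM (SD, n = 2) without IL-12 and 441 ± 3.36 CPM (SD, n = 2) with it. The groups did not overlap, and the log2 fold change was 0.16 ± 0.03 (SE, adjusted p = 0.000342). Txnrd1 was called in all 15 alternative settings, with log2 fold changes from 0.12 to 0.18.

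Srxn1 encodes sulfiredoxin, which repairs overoxidized peroxiredoxins. It lies on chromosome 2 from 152105516 to 152111376 (ENSMUSG00000032802, plus strand). It had control counts of 698 and 705 against 647 and 585 after IL-12, or 37.1 ± 0.361 CPM (SD, n = 2) without IL-12 and 32.5 ± 0.262 CPM (SD, n = 2) with it. Both IL-12 libraries were below both control libraries by a small margin, and the log2 fold change was -0.19 ± 0.07 (SE, adjusted p = 0.0406). This call was close to the threshold. Srxn1 was called in 7 of 15 alternative settings, and its adjusted p was 0.0571 with the replicate block and between 0.107 and 0.154 without each of the 4 libraries in turn.

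Nfe2l2 itself (ENSMUSG00000015839, chromosome 2 from 75675513 to 75704641, minus strand) had control counts of 3133 and 3037 against 2950 and 2669 after IL-12. The level was 163 ± 3.15 CPM (SD, n = 2) without IL-12 and 148 ± 1.13 CPM (SD, n = 2) with it, without overlap of the groups. Its log2 fold change was -0.14 ± 0.04 (SE, adjusted p = 0.0133). It was called in 8 of 15 alternative settings, and its adjusted p was 0.147, 0.0631 and 0.0735 without control replicate 1, IL-12 replicate 1 and IL-12 replicate 2. NRF2 is regulated largely as a protein, which was not measured here.

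Nqo1 and Hmox1 are among the most widely used reporters of NRF2 activity. Nqo1 encodes a quinone reductase (ENSMUSG00000003849, chromosome 8 from 107388225 to 107403206, minus strand) and was barely detected, with control counts of 4 and 3 against 11 and 15 after IL-12. Its level was 0.185 ± 0.0369 CPM (SD, n = 2) without IL-12 and 0.692 ± 0.193 CPM (SD, n = 2) with it, and the control libraries were at the level of the 3-count floor. The ratio of the summed counts, scaled to the library totals, was 3.61 with a 95% exact interval of 1.52 to 9.84, which covers counting error only. The log2 fold change was 1.86 ± 0.63 (SE, adjusted p = 0.0313). Nqo1 passed the filter on low counts only through the IL-12 libraries, where it was higher. Its adjusted p was between 0.0757 and 0.213 without each of the 4 libraries in turn and 0.0711 without the filter, and the DESeq2 Wald test gave it no adjusted p.

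Hmox1 encodes heme oxygenase 1, which degrades heme to biliverdin, iron and carbon monoxide (ENSMUSG00000005413, chromosome 8 from 75093621 to 75100589, plus strand). It was well detected, with control counts of 948 and 896 against 991 and 821 after IL-12. The levels of 48.7 ± 1.81 CPM (SD, n = 2) without IL-12 and 47.7 ± 3.33 CPM (SD, n = 2) with it overlapped between the groups. The log2 fold change was -0.03 ± 0.06 (SE, adjusted p = 0.784), and over all alternatives it stayed between -0.10 and 0.04.

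**Figure D2:**
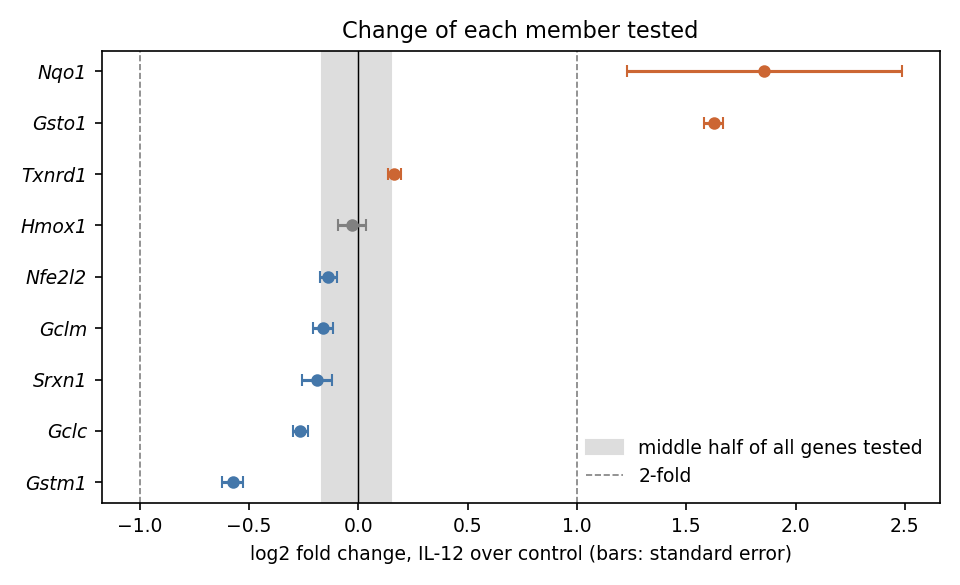
Log2 fold change of the 9 members tested, IL-12 over control, with its standard error (2 libraries per group). Orange points were called higher, blue points lower and the gray point was not called, the gray band holds the middle 50% of all genes tested (-0.17 to 0.15), and dashed lines mark 2-fold. Gsto1 at 1.63 and Nqo1 at 1.86 lie past 2-fold, and the error of Nqo1 is by far the widest.

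In level per length, the order in the control group was Gclc (92.6 FPKM), Gstm1 (87.2 FPKM), Txnrd1 (55.7 FPKM), Nfe2l2 (43.0 FPKM), Gsto1 (37.7 FPKM), Hmox1 (27.8 FPKM), Gclm (14.7 FPKM), Srxn1 (13.2 FPKM) and Nqo1 (0.119 FPKM). After IL-12 the order was Gsto1 (117 FPKM), Gclc (77.1 FPKM), Txnrd1 (62.4 FPKM), Gstm1 (58.6 FPKM), Nfe2l2 (39.1 FPKM), Hmox1 (27.3 FPKM), Gclm (13.1 FPKM), Srxn1 (11.5 FPKM) and Nqo1 (0.446 FPKM). In neither group did the values of neighbours in these orders overlap between libraries. Gsto1 moved from the fifth place to the first and Gstm1 from the second to the fourth, Gclc and Nfe2l2 each moved down by 1 place, and Txnrd1, Hmox1, Gclm, Srxn1 and Nqo1 kept theirs.

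The other genes of the system were then counted in 7 lists with 102 genes, of which 76 were tested, and 19 were higher and 12 were lower at an adjusted p below 0.05. Of all genes tested, 16.1% were higher and 14.4% were lower. The count of lower genes was thus near the background and that of higher genes above it. This excess was not tested, and the shares were not matched for expression level. The lists were chosen with earlier results of these data known. The counts of the lists below stand against the same shares. None of the called genes changed over 2-fold. With scaling by total counts, 14 were higher and 16 were lower, and of all 14095 genes tested 1765 were higher and 2590 were lower. The shift toward lower calls was thus also seen over all genes. The median log2 fold change over the 76 genes was 0.03. Several of the genes named below overlap a counted gene on the opposite strand, and those whose partner held the most counts are given with it.

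Among 9 regulators and partners of NRF2, 2 were higher, 2 were lower and 5 were not called. Those that rose were the small MAF genes Maff, from 27.6 and 35.0 CPM to 61.4 and 61.8 CPM (log2 fold change 0.98 ± 0.08 SE, adjusted p = 2.8e-08), and Mafk (log2 fold change 0.50, adjusted p = 2.99e-06). The repressor Bach1 fell by 0.18 on the log2 scale (adjusted p = 0.006), with 103 and 101 CPM without IL-12 and 91.6 and 88.8 CPM with it. Sqstm1, an autophagy receptor that binds KEAP1, fell by 0.15 on the log2 scale (adjusted p = 0.0009). Keap1 had a log2 fold change of -0.10 that did not pass the test (adjusted p = 0.213). Bach1 was called in 10 of 15 alternative settings and lost without control replicate 1 (adjusted p = 0.0535) or IL-12 replicate 2 (adjusted p = 0.0614).

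Of 21 other NRF2 targets, 16 were tested, 5 were higher and 3 were lower. Slc7a11, the cystine transporter that supplies cysteine for glutathione, rose with a log2 fold change of 0.83 ± 0.15 (SE, adjusted p = 0.000383) from 4.59 and 4.71 CPM to 8.74 and 7.79 CPM. Slc7a11 was called in 12 of 15 alternative settings and lost in each limma fit on FPKM, where its log2 fold change was 0.26 to 0.68. The export pump Abcc1, which carries glutathione conjugates, rose by 0.52 on the log2 scale (adjusted p = 6.66e-09), and the aldehyde oxidase gene Aox1 by 0.57 (adjusted p = 0.0488), but Aox1 was called in 4 of 15 alternative settings and lost without control replicate 1 or either IL-12 library. The carbonyl reductase gene Cbr1, the pentose phosphate enzyme gene Tkt and the epoxide hydrolase gene Ephx1 fell by 0.41, 0.38 and 0.35 on the log2 scale, and each was called in all 15 alternative settings. Aldh3a1, Gpx2 and Pir were at 0 in every library.

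The genes of glutathione synthesis and turnover numbered 13, of which 9 were tested, 5 were higher and 1 was lower. The largest increases were those of Ggct, an enzyme of glutathione breakdown (log2 fold change 0.61, standard error 0.15), glutathione synthetase Gss (0.29, standard error 0.06) and the aminopeptidase gene Lap3 (0.24, standard error 0.05), with adjusted p-values of 0.00448, 0.000654 and 0.00107. The call of Ggct was lost without IL-12 replicate 2, with a log2 fold change of 0.49. Ggct and Gss were called in 11 and 12 of 15 alternative settings, and neither was called in any limma fit on FPKM. Slc3a2, which encodes the partner chain of the cystine transporter, fell by 0.09 on the log2 scale (adjusted p = 0.0402) and was called in 5 of 15 alternative settings, and its call was lost when any 1 of the 4 libraries was left out. Thus Gss, which acts in the step after glutamate-cysteine ligase, rose while Gclc and Gclm fell.

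Of 24 other glutathione transferases, 10 were tested, 1 was higher and 2 were lower, near the 30.5% called of all genes tested, and the other 14 had at most 14 counts in any library. Gstcd rose by 0.39 on the log2 scale (adjusted p = 1.53e-05), but it overlaps Ints12 on the opposite strand, which had 3368 counts against 4647 for Gstcd over the 4 libraries. The membrane-bound Mgst1 fell by 0.68 on the log2 scale (adjusted p = 0.0142) and the mu-class Gstm7 by 0.67 (adjusted p = 0.046), both at low level and called in 7 and 6 of 15 alternative settings. The log2 fold change of Mgst1 was -0.38 without control replicate 2 (adjusted p = 0.265) and -0.92 without control replicate 1, and its call was also lost without either IL-12 library. The call of Gstm7 was lost without control replicate 1 or either IL-12 library. Gstp1, the most abundant of the tested transferases per length with a mean of 138 FPKM, had a log2 fold change of -0.03 (adjusted p = 0.746), and its near copies Gstp2 and Gstp3 had at most 4 counts in any library.

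Of 12 glutathione peroxidases, glutaredoxins and glyoxalases, 10 were tested, 1 was higher and 1 was lower. Glrx5, a mitochondrial glutaredoxin of iron-sulfur cluster assembly, rose by 0.39 on the log2 scale (adjusted p = 3.23e-05). The glyoxalase gene Hagh fell by 0.70 on the log2 scale with the same adjusted p, and it overlaps Fahd1 on the opposite strand, which had 692 counts against 1546 for Hagh. Of 15 thioredoxins, peroxiredoxins, superoxide dismutases and catalase, 14 were tested, 5 were higher and 2 were lower. Txnrd3 (log2 fold change 0.63), the mitochondrial thioredoxin gene Txn2 (0.35) and the peroxiredoxin gene Prdx5 (0.29) had the largest increases, with adjusted p-values of 4.34e-05, 2.99e-05 and 0.000219. The thioredoxin inhibitor Txnip fell by 0.47 on the log2 scale (adjusted p = 6.84e-06), and catalase (Cat) by 0.17 (adjusted p = 0.0299), with Cat called in 7 of 15 alternative settings and lost without control replicate 2 or either IL-12 library. Prdx5 was called in 12 of 15 alternative settings and lost in each limma fit on FPKM. It overlaps Trmt112 on the opposite strand, with 2904 counts against 11728.

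Of 8 genes of heme and iron handling, 7 were not called, including the ferritin genes Fth1 (log2 fold change 0.0019) and Ftl1 (-0.02), which like Hmox1 are NRF2 targets in many cells. The heme transporter gene Slc48a1 fell by 0.26 on the log2 scale (adjusted p = 0.000302), and it overlaps Hdac7 on the opposite strand, which had 20638 counts against 7254.

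**Figure D3:**
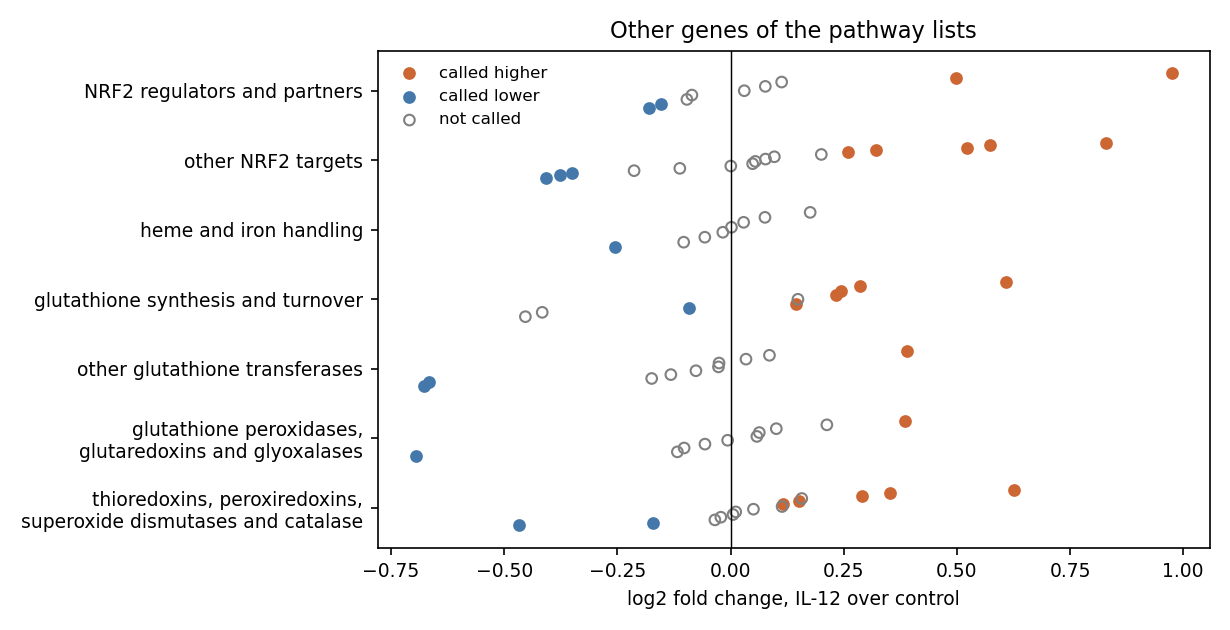
Log2 fold change, IL-12 over control, of the 76 tested genes of the 7 lists, 1 point per gene, with genes called higher in orange, called lower in blue and not called as open circles. Called genes lie on both sides of 0 in 6 of the 7 lists, and the heme and iron list has 1 gene called lower and none called higher.

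**Figure D4:**
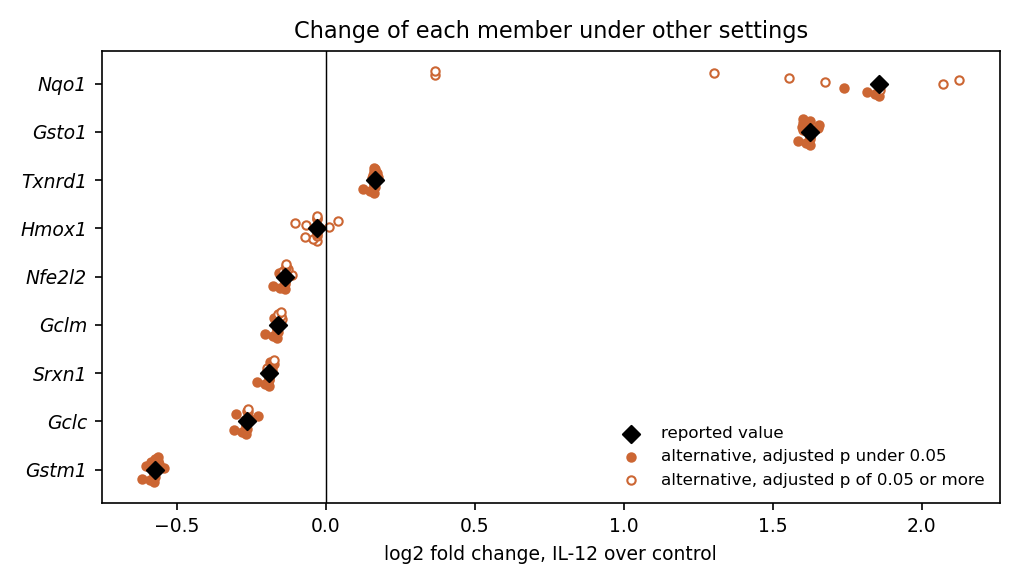
Log2 fold change of the 9 members tested in the main analysis (black diamonds) and under each alternative setting (circles, filled where the adjusted p was under 0.05). Gsto1, Gstm1 and Txnrd1 are filled throughout, Hmox1 lies on both sides of 0, and Nqo1 spreads from 0.37 to 2.12.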

How the data were processed

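RNA-sequencing was analysed for 2 IL-12 and 2 control libraries of the podocyte line, grouped by the sample labels. The authors deposited raw counts per gene and FPKM values. Each FPKM value equals the count per kilobase, relative to the library total, multiplied by 1 constant per library (0.985 to 1.02), so the FPKM values were used only for levels between genes and as an alternative. The submitters' processing notes name HISAT2, StringTie and mm9, without versions. The deposited coordinates equal GENCODE M21 (GRCm38) for 98.3% of the 54409 genes in both, so that build is given. Handling of strand and of reads matching several genes is not given in the sources used here.

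Counts were filtered with filterByExpr (minimum 10 counts, 15 in total), scaled by TMM, and tested over all 14095 genes with edgeR 4.0.16 (quasi-likelihood, R 4.3.3) and Benjamini-Hochberg adjustment. On simulated counts, 72.4% of 1.5-fold and 93.5% of 3-fold changes were recovered, with 3 to 16 false calls per draw. Smaller folds were not simulated, so this check does not cover the smaller changes of members. Standard errors are the log2 fold change over the square root of F. CPM values are TMM-scaled, except those of marker lists, which use total counts. Between replicates, the chi-square per degree of freedom was 2.20 (control) and 2.52 (IL-12), above the 1 of counting error alone. This cannot tell technical repeats from separate cultures. The floor of 3 counts is 0.149 to 0.163 CPM. Members and lists were chosen with earlier results of these data known. Beside the members, Keap1 and Bach1, the text names up to 3 called genes per list and direction with the largest change of at least 1 CPM. Other genes were named after their values were seen. Alternatives were 3 scalings, 2 filters, DESeq2 1.42.0, limma 3.58.1 voom, a replicate block, each library left out, FPKM with pseudocounts of 1 and 0.1, and stricter thresholds. With 2 libraries per group, the tests borrow their estimate of spread from all genes.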

Additional observations from a re-analysis of the deposited data

How the results depend on the processing

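Of 133 values of members under alternative settings, 100 kept direction and side of the threshold, 31 lost the call and 2 changed sign. The sign changes were those of Hmox1, which was not called in any setting, with log2 fold changes of 0.01 without control replicate 1 and 0.04 without IL-12 replicate 2, in a range of -0.10 to 0.04 without each library. For the named pathway genes, 320 values were kept, 70 lost the call and 0 changed sign. The decreases of Gclm, Srxn1 and Nfe2l2 and the increase of Nqo1 lost the call in several settings, and the cause was not tested. Nqo1 could not be fitted with at least 10 counts in every library, and Gsta4 in no setting.

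The 5 members called lower became 2 with the DESeq2 Wald test, 2 at an adjusted p under 0.01, 3 with log2(FPKM + 1), 3 with log2(FPKM + 0.1), 1 with log2(FPKM + 1) without a filter, 0 with the 2-fold limit, and 2 to 3 without each library in turn. With all 4 libraries, the members called higher stayed at 2 to 3, but not always the same genes. Gsto1 was always among them. Txnrd1 was too, except with the 2-fold limit, where Nqo1 was the other. Of the pathway genes, 19 called higher became 12 with log2(FPKM + 0.1), 11 with log2(FPKM + 1), 7 without its filter and 0 with the 2-fold limit, and 14 to 16 without each library. The 12 called lower became 7, 7, 4 and 0 in these settings and 7 to 9 without each library, lowest without IL-12 replicate 2. Over all genes, 2267 called higher and 2030 called lower became 1492 and 1213 with DESeq2, 1290 and 956 with log2(FPKM + 0.1), 1264 and 922 with log2(FPKM + 1), 700 and 478 without its filter, and 121 and 106 with the 2-fold limit. At an adjusted p under 0.01 they were 1595 and 1299, and without each library in turn 1404 to 2010 and 1124 to 1712, lowest without IL-12 replicate 1. The groups share replicate numbers in the labels only. With the replicate block, 3 members were higher and 4 lower (Srxn1 lost), 19 and 11 pathway genes, and 2272 and 2069 of all genes, and the deviations of same-numbered libraries from their group means had a correlation of -0.027 across 14095 genes. Nqo1 had 3 to 15 counts per library and Gsta4 had 0, and whether deeper sequencing would change this was not tested.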

Other observations

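The lists hold 6 further called genes that the rule for named genes left out, all higher in the IL-12 treatment group. Their values under the alternative settings were not examined gene by gene. Ugdh, which makes the sugar nucleotide for glucuronidation, had a log2 fold change of 0.32 (adjusted p = 9.01e-07), and Osgin1 of 0.26 (adjusted p = 0.0481). Glutathione reductase (Gsr) had 0.14 (adjusted p = 0.0363) and the glutathione-degrading Chac1 0.23 (adjusted p = 0.0192). The peroxiredoxin gene Prdx6 had 0.15 (adjusted p = 0.00121), and Txn1, the cytosolic thioredoxin that Txnrd1 reduces, 0.12 (adjusted p = 0.024), all from the same edgeR test.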
